A study of Mus musculus with 48 samples.

Results

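The comparison described here is that of Setd1a knockout (KO) with wild-type (WT) neural stem cells (NSCs) on day 6, taken across all expressed genes. It rests on 8 of the 48 libraries of the series, 4 KO and 4 WT, which the labels mark by genotype and day. The NSCs came from the dentate gyrus, a region of the adult hippocampus in which neurons are born throughout life. Donors were mice of both sexes, 7 to 8 weeks old, that were homozygous for a floxed Setd1a allele and carried Hopx-CreERT2 (a tamoxifen-dependent Cre under the Hopx promoter) and a Rosa26 reporter that expresses H2B-GFP once Cre has removed a stop cassette. Cultures were made quiescent by BMP4 and FGF2 in the absence of EGF. On day 2 the KO cultures received a lentivirus for Cre fused to GFP and the WT cultures a lentivirus for GFP alone, and cells were collected on day 6 without the LSD1 inhibitor that is used elsewhere in the series. The WT cells are therefore floxed cells without viral Cre, not cells of a Setd1a +/+ animal. Viral Cre, the reporter it switches on and the loss of Setd1a always go together and cannot be told apart, and since the study found most but not all cells of such cultures infected, a KO library may hold cells without Cre.

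Setd1a is the catalytic subunit of a complex that methylates lysine 4 of histone H3, a mark of active promoters and enhancers, and LSD1 (Kdm1a) removes the mono- and dimethyl forms of the same mark. Quiescent stem cells stay out of the cell cycle reversibly, and on activation they pass through DNA replication and mitosis, each with its own set of genes. Cells also adjust glycolysis, mitochondria and secreted factors through the hypoxia-inducible factors (HIFs), whose alpha subunits are degraded after prolyl hydroxylation when oxygen is plentiful. The comparison of day 6 addresses how the transcriptome of quiescent NSCs differs a few days after Cre is delivered.

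The total count was 3327966, 5693369, 11335092 and 6540110 in KO libraries 1 to 4, against 7690304, 5481206, 7684542 and 10854591 in WT libraries 1 to 4, so that KO library 1 was the shallowest. Values are given below as CPM, the count of a gene scaled to a common library size after TMM normalization, with 4 values in the order of libraries 1 to 4 and a range from the lowest library to the highest. Within a genotype, libraries 1 and 3 resembled each other more than they resembled libraries 2 and 4, and likewise libraries 2 and 4. The chi-square of counts per degree of freedom was 2.45 between KO libraries 1 and 3 and 1.98 between KO libraries 2 and 4, against 3.79 to 5.10 for the other KO pairs. In WT it was 1.97 and 2.13 for the same pairs, against 4.59 to 6.31 for the others. No pair was as close as sampling noise alone, so none was treated as a library deposited more than once. The study speaks of independent cultures and the labels give only numbers. If libraries 1 and 3, and 2 and 4, share a culture, then each group holds 2 cultures and the p-values from 4 libraries are too small, so the test was also run with these libraries summed (n = 2 per group). A gene below that passed with 4 libraries also passed with summed libraries, unless its adjusted p with summed libraries is given as 0.05 or more. In a multidimensional scaling plot of the 24 libraries, the first axis (29.8% of the variance) set the 8 libraries of day 6 apart from the other days, and a day cannot be told apart from whatever else its libraries shared.

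Setd1a itself was not lower in KO libraries. It had 5.41, 2.99, 4.19 and 2.91 CPM in KO libraries, against 2.46, 1.29, 2.21 and 2.69 CPM in WT libraries, a log2 fold change (KO over WT) of 0.77 ± 0.37 (SE) that did not pass the test (adjusted p = 0.171, edgeR quasi-likelihood), although every KO library lay above every WT library. This is no check of the genotype, because the position of the floxed exon was not given in the sources used here. The counts run over the whole gene, and 52.3% of its exonic length is shared with other genes, mainly Gm49388 on the same strand. By immunostaining, the study found less Setd1a in infected cells with viral Cre than with GFP alone, in such cultures at an earlier time. The Rosa26 transcript Gt(ROSA)26Sor, which spans the reporter locus, was lower in KO, with 2040 to 2589 CPM in KO libraries and 2501 to 2787 CPM in WT libraries, groups that overlapped (-0.26 ± 0.06, adjusted p = 0.00402). The cells expressed a pooled list of neural stem cell and astroglial markers, which does not tell stem cells from astroglia. The 21 neural stem cell and astroglial markers summed to 16800 to 17200 CPM in KO libraries and 17400 to 17600 CPM in WT libraries, led by Vim, although Hes5 and Thbs4 stayed below 1 CPM. The stem cell markers Nes and Hopx were scarce, whereas Sox2, given below, was not. Nes had 10.9 to 14.2 CPM in KO libraries and 7.19 to 12.2 CPM in WT libraries. Hopx had 7.51 to 9.97 CPM in KO libraries and 6.77 to 9.4 CPM in WT libraries. Neuronal markers summed to 905 to 950 CPM in KO libraries and 772 to 854 CPM in WT libraries, but 11 of 17 were below 1 CPM and Map2 made up most of the sum. Oligodendrocyte markers summed to 275 to 305 CPM in KO libraries and 278 to 309 CPM in WT libraries, and microglial markers to 35.0 to 51.1 CPM in KO libraries and 33.8 to 43.6 CPM in WT libraries, where 11 of the 13 microglial markers were below 1 CPM. Transcripts that collect ribosomal RNA reads took 4.11% to 4.84% of the counts in KO libraries and 4.95% to 5.34% in WT libraries, a difference that moves with the gene groups below and whose part in them was not tested.

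KO and WT NSCs differed on day 6 at 1649 of 12549 genes tested (13.1%) at an adjusted p below 0.05 (edgeR quasi-likelihood F test, Benjamini-Hochberg over all genes), of which 840 were higher (6.69%) and 809 lower (6.45%) in KO. Most of these changes were small, and 140 reached 2-fold. The KO and WT libraries did not overlap at 1354 of the 1649 genes, beside 17.3% of all genes tested, and 1641 kept their direction both in the odd and in the even libraries. The genes were called from these same libraries, which favours both counts, so neither is separate support for the calls. With libraries summed, 217 of 14063 genes passed (1.54%), 114 higher (0.811%) and 103 lower (0.732%), and 216 of them were among the 1649. Over all genes tested the median log2 fold change was 0.00, which is the value to hold against the medians of the gene groups below. Above a mean log2 CPM of 4, the rises were led by Ifit1, Egln3 and Hk2 and the falls by Gpd1, Immp2l, a mitochondrial inner membrane protease, and Top2a.

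**Figure D1:**
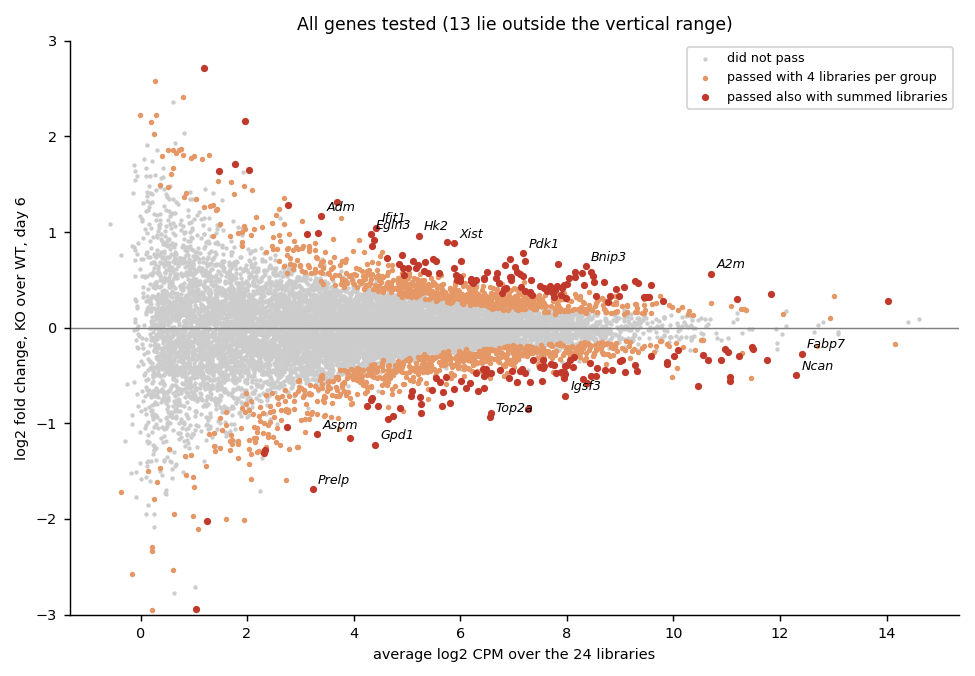
Log2 fold change of KO over WT on day 6 (vertical axis) against the average log2 CPM over the 24 libraries of days 5, 6 and 9 (horizontal axis), 1 point per gene tested. Red points are the 216 genes that passed both with 4 libraries per group and with summed libraries, orange points those that passed only with 4 libraries, and 13 genes lie outside the vertical range. Prelp (-1.69) is the lowest of the labelled genes.

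Prelp, which encodes a leucine-rich proteoglycan of the matrix, fell. It had 9.32, 9.15, 9.26 and 8.57 CPM in KO libraries, against 28.01, 29.9, 27.3 and 31.98 CPM in WT libraries (-1.69 ± 0.19, adjusted p = 1.34e-07, 0.00102 with summed libraries), and it was the only gene to pass when a change beyond 1.5-fold was itself the hypothesis tested. Prelp was chosen after its values were seen.

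Hypoxia response genes rose in KO on day 6. Of 32 members tested, 16 were higher and 1 was lower in KO, beside 6.69% and 6.45% of all genes tested. With summed libraries 12 were higher, beside 0.811% of all genes. The median log2 fold change of the list was 0.32, against 0.00 over all genes. The summed level of the members was 2806 to 2884 CPM in KO libraries and 2140 to 2186 CPM in WT libraries. Among the oxygen sensors and HIF subunits, Egln3 and Egln1 rose, and these are prolyl hydroxylases that mark HIF alpha subunits for degradation and are themselves HIF targets. Egln3 had 19.8, 21.5, 15.2 and 20.96 CPM in KO libraries, against 9.08, 11.6, 10.03 and 8.62 CPM in WT libraries (0.98 ± 0.14, adjusted p = 6.27e-06, 0.0139 with summed libraries). Egln1 had 112, 106, 114 and 109.7 CPM in KO libraries, against 78.1, 67.7, 68.2 and 67.2 CPM in WT libraries (0.65 ± 0.07, adjusted p = 1.46e-08). In both genes every KO library lay above every WT library. Hif1a, a HIF alpha subunit, rose by less (0.22 ± 0.07, adjusted p = 0.0322) and passed neither with summed libraries (adjusted p = 0.286) nor when KO library 1, 2 or 3 or WT library 1, 2, 3 or 4 was left out (adjusted p = 0.0662 to 0.108). Epas1, the gene of HIF-2 alpha, had 12.4 to 17.9 CPM in KO libraries and 16.5 to 21.9 CPM in WT libraries, and these overlapped (-0.31 ± 0.15, adjusted p = 0.178).

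Among the HIF targets of glucose use, Hk2 and Pdk1 rose. Hk2, whose product traps glucose in the cell as glucose 6-phosphate, had 22.2, 26.2, 21.6 and 25.1 CPM in KO libraries, against 13.9, 9.59, 12.6 and 12.2 CPM in WT libraries (0.96 ± 0.12, adjusted p = 1.27e-06). Pdk1, which limits the use of pyruvate in the mitochondrion by inhibiting pyruvate dehydrogenase, had 136, 136, 148 and 122 CPM in KO libraries, against 79.1, 84.5, 79.04 and 74.8 CPM in WT libraries (0.78 ± 0.08, adjusted p = 7.94e-09, 5.97e-04 with summed libraries). Both were without overlap between the genotypes. The glucose transporters did not pass: Slc2a1 had 6.12 to 11.2 CPM in KO libraries and 6.77 to 8.04 CPM in WT libraries (adjusted p = 0.362), and Slc2a3 had 102 to 114 CPM in KO libraries and 88.02 to 96.8 CPM in WT libraries (adjusted p = 0.0628).

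All 4 mitochondrial members tested rose. Bnip3, a receptor for the removal of mitochondria by autophagy, had 296, 324, 287 and 295 CPM in KO libraries, against 200.1, 193, 197 and 181 CPM in WT libraries (0.64 ± 0.05, adjusted p = 1.85e-10, 6.53e-04 with summed libraries). Its relative Bnip3l rose by 0.30 ± 0.06 on the log2 scale (adjusted p = 4.78e-04) and did not pass with summed libraries (0.0827). Fam162a, a mitochondrial HIF target, had 271 to 285 CPM in KO libraries and 166 to 179.7 CPM in WT libraries (0.67 ± 0.05, adjusted p = 1.53e-10). In each of these 3 genes the lowest KO library exceeded the highest WT library. Higd1a, a small protein of the inner mitochondrial membrane that hypoxia induces, had 252 to 283 CPM in KO libraries and 165 to 190.4 CPM in WT libraries (0.58 ± 0.06, adjusted p = 1.34e-08). Of the exonic length, 22.3% in Bnip3, 19.8% in Fam162a and 22.5% in Higd1a is shared with an overlapping gene, whose reads cannot be separated.

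Among secreted factors, Adm, the gene of the vasodilator peptide adrenomedullin, had 14.7, 10.2, 13.1 and 10.2 CPM in KO libraries, against 4.67, 5.53, 6.64 and 4.63 CPM in WT libraries (1.16 ± 0.19, adjusted p = 5.07e-05). Vegfa, the main angiogenic growth factor, had 38.6 to 52.9 CPM in KO libraries and 32.4 to 39.7 CPM in WT libraries, which overlapped (0.44 ± 0.10, adjusted p = 0.00186, 0.0904 with summed libraries). The enzymes that modify collagen moved apart. Plod2, a lysyl hydroxylase, had 53.5, 48.2, 41.3 and 53.4 CPM in KO libraries, against 25.8, 23.1, 27.2 and 27.9 CPM in WT libraries (0.89 ± 0.10, adjusted p = 2.12e-07), whereas its relative Plod1, the single member that fell, had 18.3, 22.9, 23.8 and 30.3 CPM in KO libraries, against 33.7, 34.1, 30.7 and 33.5 CPM in WT libraries (-0.45 ± 0.12, adjusted p = 0.0134, 0.227 with summed libraries, and 0.0563 when KO library 1 was left out). The prolyl hydroxylase P4ha1 rose by 0.33 ± 0.08 (adjusted p = 0.00385, 0.165 with summed libraries). In the remaining group, Kdm3a, a demethylase of histone H3 lysine 9, rose by 0.52 ± 0.07, the oxidase of the endoplasmic reticulum Ero1l by 0.69 ± 0.12 and the lipoprotein receptor Vldlr by 0.38 ± 0.06 on the log2 scale, with adjusted p = 1.50e-06, 6.46e-05 and 6.94e-05. The adenylate kinase Ak4 and the peptide ligand Apln, which were not on the list, rose by 0.69 ± 0.09 and 0.91 ± 0.17 (adjusted p = 6.33e-07 and 3.38e-04).

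The promoters of 3 of these genes are shown because ACGTG is the core of the element that HIFs bind. RefSeq promoters of GRCm38.p6 are windows of 300 bases around the transcript start, are written 5′ to 3′ on the strand of the gene, and carry ACGTG, or CACGT where it lies on the other strand, in capitals. The windows lie at chr12:54203825-54204124 (minus strand, Egln3), chr7:138909457-138909756 (minus strand, Bnip3) and chr6:82774405-82774704 (minus strand, Hk2).
Egln3: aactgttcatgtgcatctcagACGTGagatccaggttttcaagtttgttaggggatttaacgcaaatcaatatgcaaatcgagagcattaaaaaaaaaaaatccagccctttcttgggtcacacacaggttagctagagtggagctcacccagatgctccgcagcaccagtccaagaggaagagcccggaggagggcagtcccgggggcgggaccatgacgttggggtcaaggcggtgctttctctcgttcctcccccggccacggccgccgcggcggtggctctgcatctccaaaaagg
Bnip3: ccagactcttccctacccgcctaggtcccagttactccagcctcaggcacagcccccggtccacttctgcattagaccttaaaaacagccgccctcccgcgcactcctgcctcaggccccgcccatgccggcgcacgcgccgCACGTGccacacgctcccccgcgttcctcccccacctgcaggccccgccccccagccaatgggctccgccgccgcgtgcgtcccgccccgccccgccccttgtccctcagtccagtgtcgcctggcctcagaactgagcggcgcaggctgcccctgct
Hk2: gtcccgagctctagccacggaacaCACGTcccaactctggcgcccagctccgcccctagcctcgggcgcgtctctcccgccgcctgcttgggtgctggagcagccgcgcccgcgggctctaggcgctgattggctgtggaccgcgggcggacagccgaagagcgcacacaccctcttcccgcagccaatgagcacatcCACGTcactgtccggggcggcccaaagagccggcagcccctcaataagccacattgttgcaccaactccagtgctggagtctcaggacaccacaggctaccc
The letters occurred once in Egln3 and at 2 places each in Bnip3, where the matches on the opposite strands overlap as CACGTG, and in Hk2. Of the 24 hypoxia response genes with a promoter in the table, 17 (70.8%) held ACGTG on either strand, as did 9 of the 13 (69.2%) that rose and had a promoter there, against 29.6% of the 9433 genes tested with a promoter and 21.8% of all 27025 genes in the table. A match is a description of the sequence and not a site.

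The effect on day 6 was set apart from that of days 5 and 9, and other days of the series were not compared. On the log2 scale Egln3 differed by -0.10 on day 5, 0.98 ± 0.14 on day 6 and -0.05 on day 9, and the effect of day 6 differed from both (adjusted p = 1.60e-04 against day 5 and 5.19e-04 against day 9), although with summed libraries the difference from day 9 did not pass (adjusted p = 0.125). Pdk1 differed by -0.31 on day 5, 0.78 on day 6 and -0.34 on day 9 (adjusted p of the difference = 7.27e-09 and 6.45e-09). Bnip3 differed by -0.40, 0.64 and 0.04 on these days (adjusted p of the difference = 1.24e-11 and 1.16e-06), and Egln1 by -0.39, 0.65 and -0.25 (adjusted p of the difference = 1.06e-09 and 2.95e-08). All 4 were higher in KO on day 6 and lower in KO, or within 0.05 of no change, on days 5 and 9. The KO effect on Pgk1, a glycolytic enzyme, was -0.41 on day 5, 0.47 on day 6 and -0.15 on day 9 (adjusted p of the difference = 1.36e-10 and 2.74e-07). Over the list, the effect was larger on day 6 than on day 5 for 15 of 32 genes and smaller for 1, beside 7.48% and 5.11% of all genes, and larger than on day 9 for 15 and smaller for 0, beside 3.95% and 3.86% (edgeR, 1 at an unadjusted p below 0.05). With summed libraries it was larger than on day 5 for 10 and than on day 9 for 8. The levels by day show that the side on which the difference lay varied between genes. Egln3 stood at 21.4 ± 0.754, 19.4 ± 2.86 and 22.2 ± 1.22 CPM in KO cells on days 5, 6 and 9, and at 23.04 ± 3.95, 9.84 ± 1.33 and 23 ± 1.16 CPM in WT cells (mean ± SD, n = 4). Pgk1 stood at 369 ± 6.19, 347 ± 32.8 and 483 ± 4.88 CPM in KO cells, and at 489.6 ± 16.6, 250.5 ± 6.54 and 536 ± 4.02 CPM in WT cells. WT cells had their lowest mean of both genes on day 6, and KO cells were nearer to their own levels on the other days. Hk2 was low in both genotypes on day 6, at 43.1 ± 5.58, 23.8 ± 2.23 and 44.3 ± 5.92 CPM in KO cells and 47.3 ± 2.69, 12.1 ± 1.803 and 50.9 ± 2.21 CPM in WT cells. Other members differed in this. In KO cells Fam162a was highest on day 6, with means of 205, 277.5 and 238 CPM on days 5, 6 and 9. In WT cells Fam162a was lowest on day 6, at 222, 174.5 and 250 CPM. Bnip3l was highest on day 6 in both genotypes. Its means were 307, 493 and 426 CPM in KO cells and 342, 400.5 and 375 CPM in WT cells. Levels were not tested between days.

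**Figure D2:**
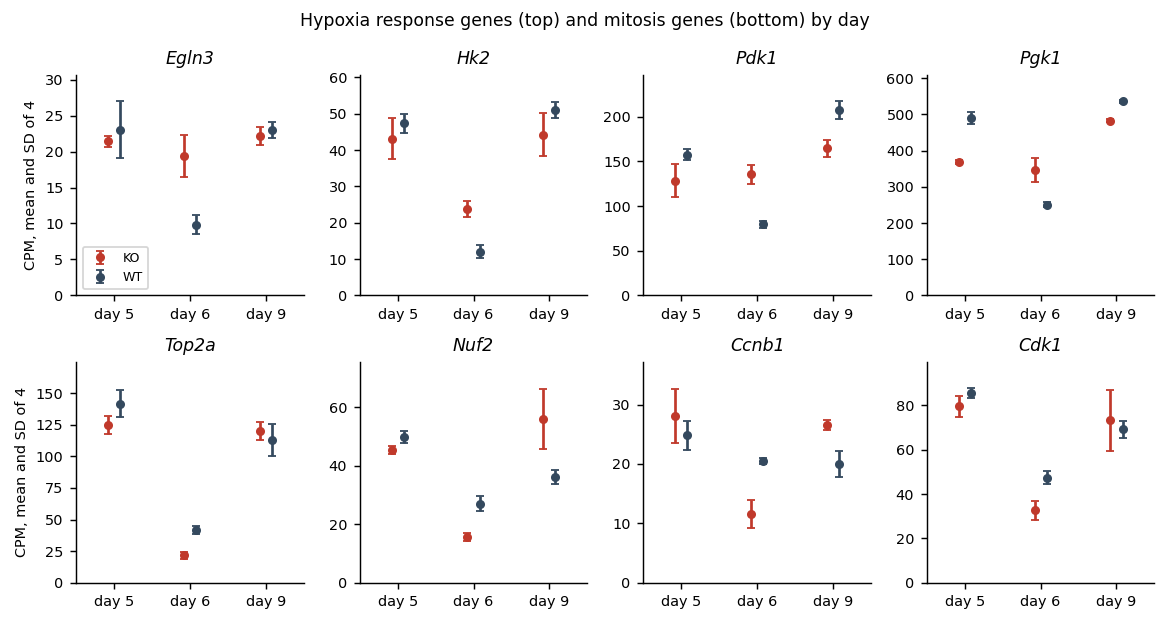
CPM (vertical axes, starting at 0) on days 5, 6 and 9. The top row holds the hypoxia response genes Egln3, Hk2 and Pdk1 and the glycolytic gene Pgk1, and the bottom row 4 mitosis genes. Points are means and bars SD of 4 libraries, with KO in red to the left of WT in dark blue. On day 6 the genes of the top row are higher in KO and the mitosis genes lower in KO, and all 4 mitosis genes are lowest in KO on day 6.

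Genes of mitosis were lower in KO on day 6. Of 81 members tested, 30 fell and 1 rose in KO, beside 6.45% and 6.69% of all genes tested. With summed libraries 8 fell, beside 0.732% of all genes. The median log2 fold change of the list was -0.49, against 0.00 over all genes. The summed level of the list was 1042 to 1067 CPM in KO libraries and 1216 to 1259 CPM in WT libraries. The cyclins and kinases of mitotic entry had the lowest median (-0.61, with 8 of 18 lower), followed by kinetochore genes (-0.51, 7 of 17), genes of chromosome condensation and separation (-0.41, 6 of 20) and genes of the spindle, its motors and cytokinesis (-0.40, 9 of 26). Cdk1, the kinase that drives entry into mitosis, had 38.5, 29.2, 30.1 and 32.6 CPM in KO libraries, against 44.4, 49.98, 45.4 and 49.8 CPM in WT libraries (-0.56 ± 0.10, adjusted p = 1.98e-04, 0.0297 with summed libraries). Its partner cyclins fell further. Ccnb1 had 9.62, 14.3, 9.697 and 13 CPM in KO libraries, against 19.8, 21.03, 20.2 and 20.9 CPM in WT libraries (-0.81 ± 0.14, adjusted p = 6.60e-05), and Ccnb2 had 4.72 to 6.87 CPM in KO libraries, against 10.1 to 15.2 CPM in WT libraries (-1.04 ± 0.23, adjusted p = 0.0025). All 3 were without overlap. The mitotic kinase genes Aurka (-0.66 ± 0.22, adjusted p = 0.0406) and Aurkb (-1.29 ± 0.44, adjusted p = 0.0469) passed with 4 libraries but not with summed libraries (adjusted p = 0.267 and 0.157). The adjusted p of Aurka was 0.0761 to 0.147 when KO library 1, 3 or 4 or WT library 2 or 4 was left out, and that of Aurkb 0.0546 to 0.168 when KO library 1, 2, 3 or 4 or WT library 1, 2 or 4 was left out. Aurkb, at 0.902, 0.88, 0.961 and 0.153 CPM in KO libraries and 2.72, 2.21, 0.651 and 1.76 CPM in WT libraries, overlapped between the genotypes and rests on few counts.

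At the kinetochore, Nuf2, a subunit of the complex that binds spindle microtubules, had 17.1, 14.1, 15.5 and 16.1 CPM in KO libraries, against 27.2, 25.3, 30.5 and 25.2 CPM in WT libraries (-0.80 ± 0.12, adjusted p = 9.16e-06, 0.0106 with summed libraries). Of the spindle genes, Aspm, which organises spindle poles and whose loss gives a small brain, had 4.21, 5.99, 5.59 and 6.12 CPM in KO libraries, against 16.2, 7.93, 13.02 and 10.8 CPM in WT libraries (-1.11 ± 0.21, adjusted p = 2.80e-04). Tpx2, an activator of Aurka at the spindle, had 16.8, 15.3, 16.4 and 16.4 CPM in KO libraries, against 32.5, 22.7, 30.99 and 22.5 CPM in WT libraries (-0.75 ± 0.16, adjusted p = 0.00113, 0.0903 with summed libraries). In all 3 the genotypes did not overlap, and the odd WT libraries were above the even ones in Aspm and Tpx2. Ect2, needed for cytokinesis, had 6.31 to 12.7 CPM in KO libraries and 15.7 to 24.01 CPM in WT libraries (-0.87 ± 0.17, adjusted p = 6.96e-04, 0.0577 with summed libraries). Ckap2l, a microtubule-associated protein of the spindle, had 4.81, 5.11, 7.78 and 4.13 CPM in KO libraries, against 15.9, 9.41, 12.9 and 12.3 CPM in WT libraries (-1.15 ± 0.18, adjusted p = 1.81e-05). Neither gene overlapped between the genotypes. Ckap2, a relative of Ckap2l, was the single member that rose, at 88.5 to 100.2 CPM in KO libraries and 65.4 to 85.98 CPM in WT libraries (0.32 ± 0.08, adjusted p = 0.00651, 0.14 with summed libraries, and 0.051 when WT library 4 was left out). Among genes of the chromosomes, Top2a, the topoisomerase that untangles sister chromatids, had 23.4, 17.6, 22.7 and 23.1 CPM in KO libraries, against 41.6, 41.9, 45.2 and 37.9 CPM in WT libraries (-0.93 ± 0.10, adjusted p = 3.56e-08, 0.00186 with summed libraries). Mki67, the gene of the proliferation antigen Ki67, had 7.22 to 10.2 CPM in KO libraries and 10.1 to 15.7 CPM in WT libraries, which overlapped (-0.67 ± 0.19, adjusted p = 0.0166, 0.183 with summed libraries, and 0.0641 when WT library 1 was left out). In bulk libraries, fewer cells in mitosis and less RNA per mitotic cell cannot be told apart.

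Promoters of 3 mitosis genes are shown because genes of the late cell cycle commonly hold CCAAT boxes, bound by NF-Y, and the cell cycle homology region TTTGAA. Capitals mark these letters, written as ATTGG and TTCAAA where a match lies on the other strand. The windows, of the same table and length, lie at chr11:99024140-99024439 (minus strand, Top2a), chr2:129297163-129297462 (minus strand, Ckap2l) and chr1:139454523-139454822 (plus strand, Aspm).
Top2a: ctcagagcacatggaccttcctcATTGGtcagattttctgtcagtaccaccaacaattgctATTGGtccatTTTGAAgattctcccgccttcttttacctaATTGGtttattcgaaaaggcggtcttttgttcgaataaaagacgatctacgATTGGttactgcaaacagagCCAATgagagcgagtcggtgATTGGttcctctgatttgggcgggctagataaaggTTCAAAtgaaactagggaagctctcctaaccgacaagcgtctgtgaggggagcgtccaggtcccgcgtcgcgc
Ckap2l: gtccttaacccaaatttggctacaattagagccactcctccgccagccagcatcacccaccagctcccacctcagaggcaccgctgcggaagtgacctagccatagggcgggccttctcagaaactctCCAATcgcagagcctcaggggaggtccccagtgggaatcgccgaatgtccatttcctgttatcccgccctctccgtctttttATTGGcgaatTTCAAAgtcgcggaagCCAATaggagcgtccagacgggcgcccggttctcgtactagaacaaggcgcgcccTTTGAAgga
Aspm: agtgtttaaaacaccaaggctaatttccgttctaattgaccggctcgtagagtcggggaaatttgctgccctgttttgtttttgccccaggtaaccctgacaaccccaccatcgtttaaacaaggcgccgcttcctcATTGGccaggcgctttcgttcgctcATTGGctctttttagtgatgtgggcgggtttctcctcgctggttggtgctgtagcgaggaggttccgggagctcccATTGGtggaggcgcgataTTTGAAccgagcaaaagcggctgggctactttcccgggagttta
CCAAT was found at 6 places in Top2a, 3 in Ckap2l and 3 in Aspm, and TTTGAA at 2, 2 and 1 in that order. TTTGAA was held by 47 of 67 mitosis genes with a promoter (70.1%) and by 17 of the 26 (65.4%) that fell and had one, against 13.9% of the genes tested. CCAAT was held by 46 of the 67 (68.7%) and by 20 of the 26 (76.9%), against 43.7% of the genes tested. ACGTG was held by 23.9% of the mitosis genes, and TTTGAA by 12.5% of the hypoxia response genes. CCAAT was held by 54.2% of the hypoxia response genes, a share also above that of the genes tested. The hypoxia response genes that rose held ACGTG, and the mitosis genes that fell held TTTGAA, no more often than their whole lists.

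The fall in mitosis genes differed from the effects on days 5 and 9. The effect was smaller, in the sense of more negative, on day 6 than on day 5 for 18 of the 81 genes. It was larger for 3, and the shares over all genes were 5.11% smaller and 7.48% larger. Against day 9 it was smaller for 28 and larger for 2, beside 3.86% and 3.95%. With summed libraries it was smaller than on day 5 for 2 and than on day 9 for 7, and larger for 0 in both comparisons. Top2a differed by -0.18 on day 5, -0.93 on day 6 and 0.09 on day 9 (adjusted p of the difference = 1.06e-04 and 1.88e-06). Nuf2 differed by -0.13, -0.80 and 0.60 on these days (adjusted p of the difference = 0.00341 and 1.47e-07), and Ccnb1 by 0.16, -0.81 and 0.41 (adjusted p of the difference = 4.11e-04 and 3.32e-05). The effect on Aspm was 0.06 on day 5, -1.11 on day 6 and 0.80 on day 9 (adjusted p of the difference = 0.00535 and 3.11e-05). On day 9 all 4 genes had effects above 0. With summed libraries the differences from day 5 did not pass for Nuf2 (adjusted p = 0.117), Ccnb1 (0.0747) and Aspm (0.0896), and the other differences did. Top2a was scarce on day 6 in both genotypes, with 124 ± 7.24, 21.7 ± 2.76 and 119.9 ± 7.36 CPM in KO cells on days 5, 6 and 9, and 142 ± 10.4, 41.6 ± 2.97 and 113 ± 12.9 CPM in WT cells. Cdk1 likewise stood at 79.5 ± 4.83, 32.6 ± 4.18 and 73.3 ± 13.7 CPM in KO cells, and at 85.4 ± 2.15, 47.4 ± 2.91 and 69.2 ± 3.95 CPM in WT cells.

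**Figure D3:**
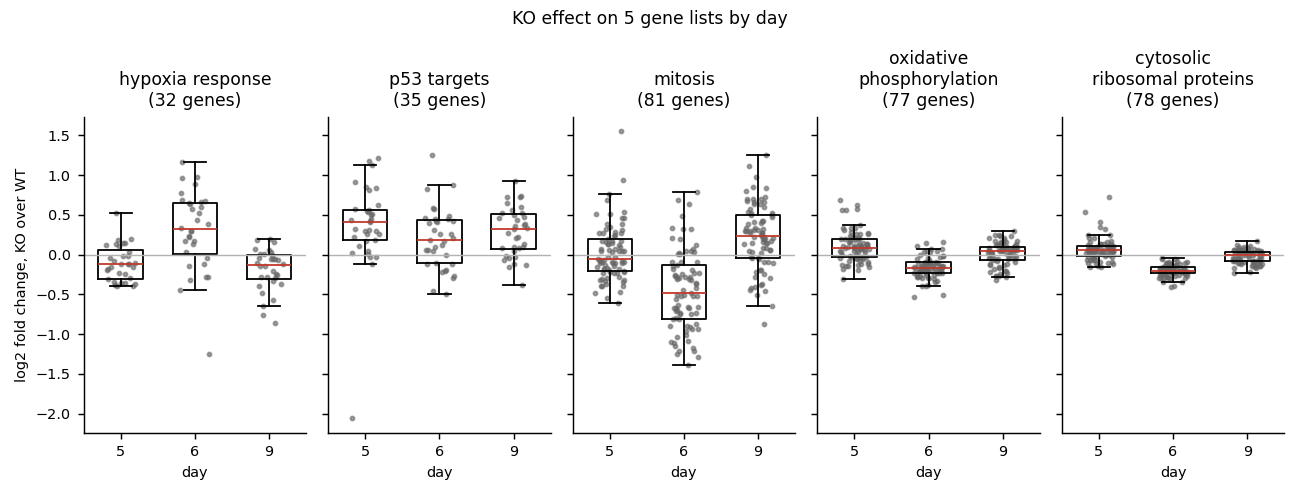
Log2 fold change of KO over WT (vertical axis) of the members of 5 gene lists on days 5, 6 and 9 (horizontal axes). Points are genes, boxes span the quartiles with the median in red, and whiskers reach the last gene within 1.5 times the box height. On day 6 the median is 0.32 for the hypoxia response, 0.18 for p53 targets, -0.49 for mitosis, -0.17 for oxidative phosphorylation and -0.20 for cytosolic ribosomal proteins.

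The median and the summed level of DNA replication genes differed in sign. Of 59 tested, 8 were higher and 1 lower in KO, beside 6.69% and 6.45% of all genes tested, 2 were higher with summed libraries, and the median was 0.09. The summed level was 1266 to 1308 CPM in KO libraries and 1330 to 1405 CPM in WT libraries, and that of the polymerases and fork proteins among them 772 to 843 CPM in KO libraries and 861 to 955 CPM in WT libraries, so every KO library was lower. Both lower sums rest on the abundant Rpa1, whose values are given below, and do not describe the list as a whole. The 8 became 5 without KO library 2, KO library 3 or WT library 4, and 4 without WT library 3. Mcm6, a subunit of the replicative helicase, had 36.98, 35.2, 33.3 and 26.3 CPM in KO libraries, against 21.3, 17.3, 19.01 and 21.3 CPM in WT libraries, without overlap (0.72 ± 0.11, adjusted p = 1.45e-05, 0.0112 with summed libraries). The S phase cyclins rose as well, Ccne2 by 0.59 ± 0.14 (adjusted p = 0.00441) and Ccne1, at 2.45 to 5.41 CPM in KO libraries and 0.738 to 2.08 CPM in WT libraries, by 1.17 ± 0.34 (adjusted p = 0.0199, 0.156 with summed libraries, and 0.0609 to 0.0708 when KO library 1 or WT library 2 or 3 was left out). Ccne2 shares 17.4% of its exonic length with Ints8. Tyms, which makes thymidylate, rose by 0.47 ± 0.13 (adjusted p = 0.0118, 0.132 with summed libraries, and 0.0562 when KO library 2 was left out). The origin licensing factor Cdc6, at under 3 CPM in every library, rose by 1.15 ± 0.36 (adjusted p = 0.0279, 0.123 with summed libraries, and 0.0755 to 0.205 when KO library 2 or 3 or WT library 3 or 4 was left out). Rpa1, the large subunit of the single-strand binding protein, was the single member that fell, with 327 to 380.5 CPM in KO libraries and 444 to 513 CPM in WT libraries (-0.44 ± 0.10, adjusted p = 0.0022, 0.156 with summed libraries). Ccnd2, a D-type cyclin, had 489.7, 594, 553 and 594 CPM in KO libraries, against 685, 718, 681 and 744 CPM in WT libraries (-0.34 ± 0.06, adjusted p = 6.94e-05). Across 38 genes of quiescence and cell cycle control 3 rose and 2 fell, with a median of -0.04.

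**Figure D4:**
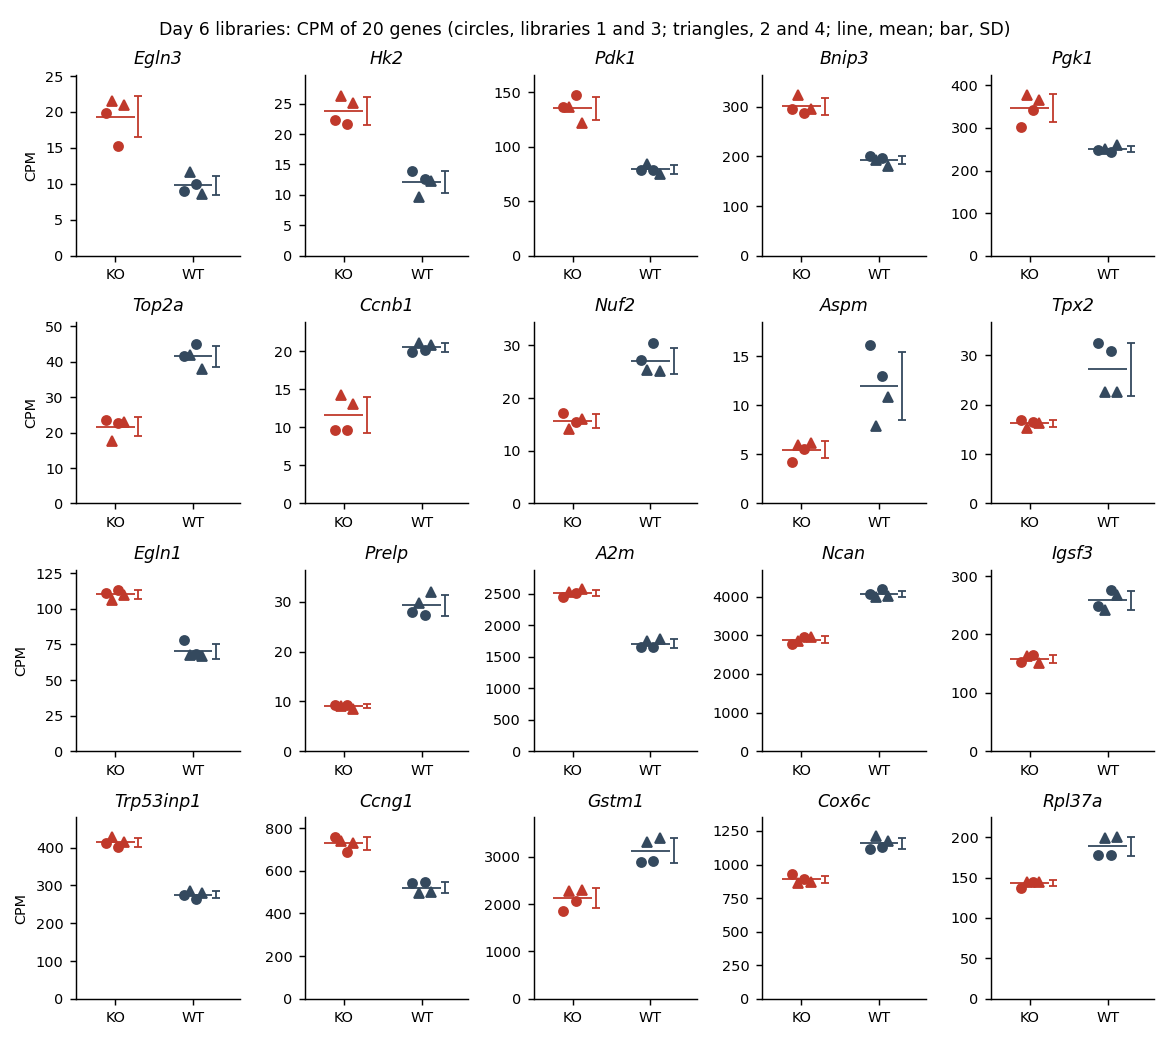
CPM (vertical axes, starting at 0) of 20 genes in the 4 KO libraries (red, left) and the 4 WT libraries (dark blue, right) of day 6. Circles are libraries 1 and 3, triangles libraries 2 and 4, the line is the mean and the bar the SD. The KO and WT libraries do not overlap in any of the 20 genes, which were picked from those the text describes.

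Nuclear genes of oxidative phosphorylation moved down together by small amounts. Of 77 tested, 33 fell and 0 rose in KO, beside 6.45% and 6.69% of all genes tested (edgeR). By DESeq2 the counts were 39 and 0, and at an unadjusted p below 0.05 in edgeR 45 and 0. With summed libraries 7 fell, beside 0.732% of all genes. The median of the list was -0.17. With offsets for the GC content and length of each gene, 21 fell and the median was -0.12. Falls were found in every complex, in 16 of 37 genes of complex I, 3 of 4 of complex II, 4 of 10 of complex III with cytochrome c, 4 of 11 of complex IV and 6 of 15 of the ATP synthase. Cox6c, a subunit of cytochrome c oxidase, had 929.8, 864, 889 and 872 CPM in KO libraries, against 1113, 1210, 1131 and 1175 CPM in WT libraries (-0.38 ± 0.04, adjusted p = 1.20e-07, 0.00314 with summed libraries). Atp5e, the epsilon subunit of the ATP synthase, had 262, 308, 319 and 325 CPM in KO libraries, against 408, 425, 422 and 479.7 CPM in WT libraries (-0.51 ± 0.06, adjusted p = 3.85e-07). The genotypes did not overlap in either gene. Ndufc1 and Ndufa6 of complex I fell by 0.39 and 0.40 on the log2 scale (adjusted p = 1.90e-06 and 1.28e-05), and Uqcr10 of complex III by 0.33 (adjusted p = 2.94e-05). Of the 7 messenger RNAs encoded by mitochondrial DNA that were tested, 1 rose and 1 fell, and mt-Co1 had 23060 to 25030 CPM in KO libraries and 22690 to 23860 CPM in WT libraries (0.06 ± 0.03, adjusted p = 0.228). The effect on the nuclear genes was more negative on day 6 than on day 5 for 29 of 77 genes and than on day 9 for 20, beside 5.11% and 3.86% of all genes, and less negative for 0 in either case, also at an unadjusted p below 0.05 (edgeR). With summed libraries these counts were 3 and 2.

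Cytosolic ribosomal protein genes behaved in the same way. Of 78 tested, 39 were lower and 0 higher in KO, beside 6.45% and 6.69% of all genes tested (edgeR). By DESeq2 the counts were 46 and 0, and at an unadjusted p below 0.05 in edgeR 64 and 0. With summed libraries 4 were lower, beside 0.732% of all genes. The median of the list was -0.20, and the log2 fold change was below 0 in all 78. With the same offsets, 25 fell and the median was -0.15. Both subunits took part, with 18 of 45 genes of the large and 21 of 33 genes of the small one. Rpl37a had 137, 145, 144 and 144 CPM in KO libraries, against 178, 198, 178 and 199.7 CPM in WT libraries (-0.40 ± 0.06, adjusted p = 3.21e-05). Rpl32, which shares 20.04% of its exonic length with other genes, had 189.7 to 230.5 CPM in KO libraries and 238 to 306 CPM in WT libraries (-0.41 ± 0.07, adjusted p = 1.63e-04). Rps27 fell by 0.30 and Rpl3 by 0.25 (adjusted p = 2.72e-04 and 0.0012), and neither passed with summed libraries (adjusted p = 0.0719 and 0.122). Ribosomal protein genes took 1.35% to 1.44% of the counts in KO libraries and 1.57% to 1.66% in WT libraries. Across all genes the log2 fold change correlated weakly with GC content (Spearman rho = -0.16) and with exonic length (0.16, 12443 genes, which are not independent replicates). The lower counts with offsets, given above, come from a fit that models both trends, and the part of these trends in the falls was not tested.

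**Figure D5:**
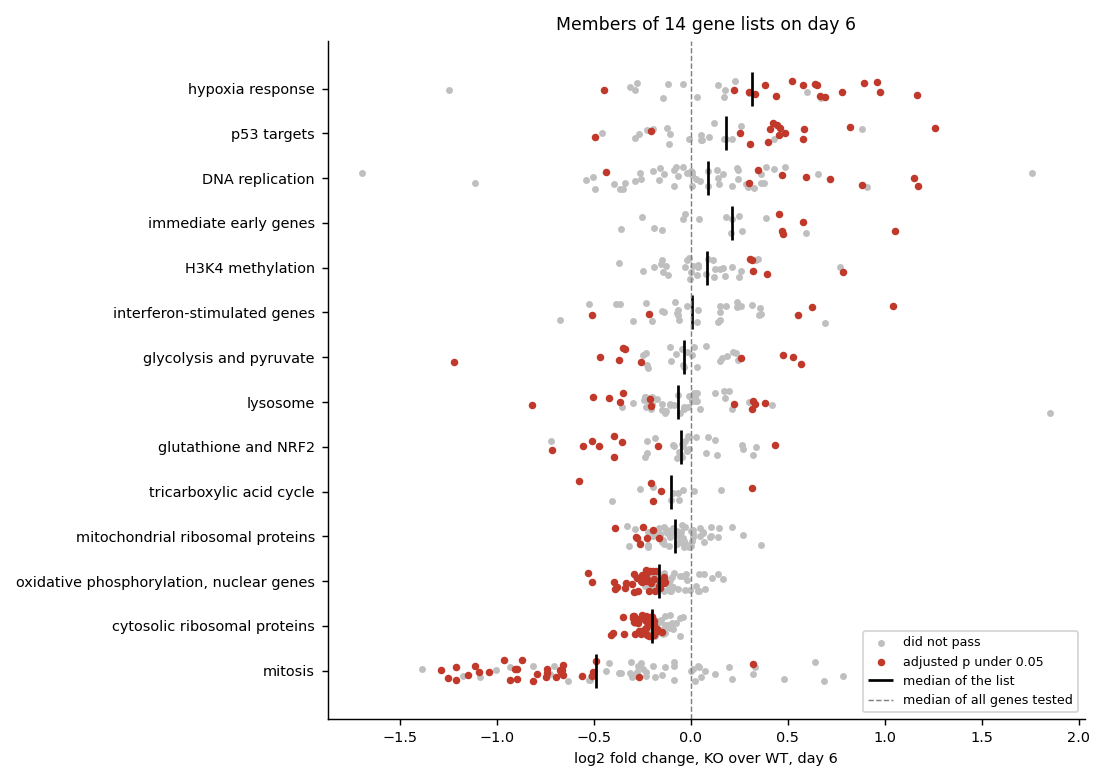
Log2 fold change of KO over WT on day 6 (horizontal axis) of the members of 14 gene lists (rows), 1 point per gene. Red points passed at an adjusted p below 0.05, black lines are list medians and the dashed line is the median of all genes tested. The hypoxia response has the highest median (0.32) and mitosis the lowest (-0.49).

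Glycolytic genes were divided. Of 31 genes of glycolysis and pyruvate use, 4 rose and 6 fell, beside 6.69% and 6.45% of all genes tested, with a median of -0.04. Pgk1 had 303, 377, 342 and 366 CPM in KO libraries, against 249, 251, 243 and 259 CPM in WT libraries (0.47 ± 0.05, adjusted p = 3.91e-08). Pgam1, the next enzyme of the pathway, had 34.6, 41.01, 37.4 and 38.1 CPM in KO libraries, against 27.4, 23.8, 25.6 and 25.3 CPM in WT libraries (0.57 ± 0.09, adjusted p = 4.68e-05). Gpi1, the isomerase of glucose 6-phosphate, rose by 0.53 ± 0.08 and the muscle-type aldolase Aldoa by 0.26 ± 0.07 (adjusted p = 4.03e-05 and 0.0087), of which Aldoa passed neither with summed libraries (adjusted p = 0.185) nor when KO library 3 or WT library 2 or 4 was left out (adjusted p = 0.051 to 0.0585). The brain-type aldolase Aldoc, an astroglial enzyme, went the other way, with 2983, 3494, 3236 and 3238 CPM in KO libraries, against 4005, 4215, 3926 and 4228 CPM in WT libraries (-0.34 ± 0.04, adjusted p = 4.60e-07). Pfkm, a phosphofructokinase, had 190 to 241 CPM in KO libraries and 292 to 327 CPM in WT libraries (-0.47 ± 0.06, adjusted p = 3.44e-06). Neither of these 2 enzymes overlapped between the genotypes. Gpd1, which diverts a glycolytic intermediate to glycerol phosphate, had 4.51, 5.46, 4.28 and 6.27 CPM in KO libraries, against 11.5, 9.78, 11.2 and 14.5 CPM in WT libraries, the lowest log2 fold change of a gene that passed above a mean log2 CPM of 4 (-1.22 ± 0.16, adjusted p = 1.99e-06). In the tricarboxylic acid cycle 1 of 15 genes rose and 4 fell. The isocitrate dehydrogenase Idh2 rose by 0.32 ± 0.06 (adjusted p = 5.63e-04, 0.104 with summed libraries). The share of exonic length in common with another gene was 12.97% for Gpd1, 11.5% for Gpi1 and 10.7% for Pfkm.

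Among targets of p53, the transcription factor that halts the cell cycle after damage, genes of arrest and cell death rose in KO. Of 35 targets tested, 13 rose and 2 fell, beside 6.69% and 6.45% of all genes tested, 4 rose with summed libraries, and the median was 0.18, beside 0.41 on day 5 and 0.32 on day 9. The rises were 6 of 11 genes of arrest and p53 feedback, 6 of 10 of cell death and 1 of 14 of metabolism and repair. In the genes of metabolism and repair 1 fell, the median was 0.02, and the summed level was 2013 to 2222 CPM in KO libraries and 2273 to 2406 CPM in WT libraries, lower in every KO library. Among genes of arrest and p53 feedback, Cdkn1a, the inhibitor of cyclin-dependent kinases, had 158, 157, 171 and 156 CPM in KO libraries, against 127, 118, 129.7 and 115 CPM in WT libraries (0.40 ± 0.08, adjusted p = 8.98e-04, 0.0825 with summed libraries). Mdm2, the ubiquitin ligase that degrades p53, had 131, 89.1, 116 and 102 CPM in KO libraries, against 75.6, 72.3, 75 and 69.2 CPM in WT libraries (0.58 ± 0.09, adjusted p = 4.74e-05). Both were free of overlap. Ccng1 had 689 to 759 CPM in KO libraries and 495 to 545 CPM in WT libraries (0.48 ± 0.05, adjusted p = 1.80e-08), and the antiproliferative gene Btg2 rose by 0.45 ± 0.10 (adjusted p = 0.00279, 0.164 with summed libraries). Among genes of cell death, Trp53inp1 had 402 to 428 CPM in KO libraries and 264 to 286 CPM in WT libraries (0.58 ± 0.06, adjusted p = 1.40e-08). The death receptor Fas had 239.9, 277, 246 and 291 CPM in KO libraries, against 202, 198, 201 and 194 CPM in WT libraries (0.41 ± 0.06, adjusted p = 5.12e-06), and its relative Eda2r rose by 0.46 ± 0.09 (adjusted p = 8.29e-04, 0.125 with summed libraries). In Ccng1, Trp53inp1 and Fas every KO library lay above every WT library. The proapoptotic Pmaip1 had 11.01 to 15.6 CPM in KO libraries and 13.1 to 21.8 CPM in WT libraries, which overlapped (-0.49 ± 0.17, adjusted p = 0.0456, 0.271 with summed libraries, and 0.0998 to 0.181 when KO library 2, 3 or 4 or WT library 1 or 3 was left out). The effect was smaller on day 6 than on day 5 for 7 of the 35 genes, beside 5.11% of all genes, and for 0 with summed libraries (edgeR, 8 at an unadjusted p below 0.05). Cdkn1a was among the 7, with 0.85 on day 5, 0.40 on day 6 and 0.59 on day 9 (adjusted p of the difference = 0.00769 against day 5, 0.185 with summed libraries, and 0.342 against day 9). For Ccng1 the effects of 0.49, 0.48 and 0.44 gave no difference that passed (adjusted p = 0.949 and 0.772). Of 50 genes of DNA repair and checkpoints 5 fell and 0 rose (edgeR, 9 and 3 at an unadjusted p below 0.05, and by DESeq2 5 and 1). With summed libraries 0 fell and 0 rose (edgeR, 5 and 1 unadjusted). Those that fell include the kinase Chek1 (-0.79 ± 0.24, adjusted p = 0.0227, 0.154 with summed libraries) and Brca1 (-0.73 ± 0.23, adjusted p = 0.0268, 0.19 with summed libraries), both below 6 CPM. The adjusted p of Chek1 was 0.0577 to 0.0945 when KO library 2 or 4 or WT library 3 was left out, and that of Brca1 0.0568 to 0.0875 when KO library 1, 3 or 4 or WT library 1 or 2 was left out.

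Some glutathione enzymes fell, and Gclc rose. Of 37 genes of glutathione use and the NRF2 response 1 rose and 8 fell, beside 6.69% and 6.45% of all genes tested, with a median of -0.05, and 6 of the 8 were among the 22 genes of glutathione synthesis and use. Gclc, the catalytic subunit of the rate-limiting enzyme of glutathione synthesis, had 221, 216, 221 and 216 CPM in KO libraries, against 176, 156, 163 and 153 CPM in WT libraries (0.43 ± 0.06, adjusted p = 1.60e-06). The glutathione S-transferase Gstm1 had 1859, 2286, 2064 and 2295 CPM in KO libraries, against 2888, 3312, 2918 and 3409 CPM in WT libraries (-0.56 ± 0.08, adjusted p = 2.99e-06). Gpx4, the peroxidase that removes lipid peroxides, had 204, 179, 213 and 181 CPM in KO libraries, against 279, 254, 298 and 246 CPM in WT libraries (-0.47 ± 0.07, adjusted p = 2.64e-05). None of the 3 overlapped. Gsta4, Gstm5 and Mgst1 fell by 0.51, 0.40 and 0.36 on the log2 scale (adjusted p = 1.66e-04, 8.73e-07 and 2.39e-06). Gpx4 was among the 9 genes of the list whose effect was more negative on day 6 than on day 5 (2 with summed libraries, and 5.11% of all genes), with 0.37 on day 5, -0.47 on day 6 and 0.09 on day 9 (adjusted p of the difference = 7.90e-07 and 5.93e-04, of which the second was 0.15 with summed libraries). Of 53 lysosomal genes 5 rose and 7 fell, beside the same 6.69% and 6.45% of all genes tested, and 0 rose and 2 fell with summed libraries (edgeR, 4 and 9 at an unadjusted p below 0.05). The lysosomal hydrolase Manba had 17.4 to 21.3 CPM in KO libraries and 30.7 to 38 CPM in WT libraries (-0.82 ± 0.14, adjusted p = 6.38e-05), while the protease Ctsb, at 9947 to 12430 CPM in KO libraries and 8571 to 9707 CPM in WT libraries, was higher (0.33 ± 0.06, adjusted p = 4.78e-04, 0.0506 with summed libraries) and shares 12.8% of its exonic length with Fdft1.

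Genes that mark neural stem cells and astroglia moved in both directions. Of 19 tested, 4 were higher and 5 lower, beside 6.69% and 6.45% of all genes tested, and the median was -0.03. Vim, the intermediate filament of radial glia, had 5266, 4795, 5113 and 4903 CPM in KO libraries, against 3947, 3852, 4079 and 3828 CPM in WT libraries (0.35 ± 0.05, adjusted p = 5.30e-06). Ntsr2, a neurotensin receptor of astroglia, had 9.02, 10.4, 9.87 and 12.1 CPM in KO libraries, against 3.11, 4.61, 4.43 and 4.91 CPM in WT libraries (1.28 ± 0.20, adjusted p = 2.45e-05). Slc1a2, a glutamate transporter, rose by 0.27 ± 0.05 (adjusted p = 9.68e-05, 0.0627 with summed libraries). On the other side, the lipid carrier Apoe had 173, 166, 182 and 151 CPM in KO libraries, against 262, 246, 258 and 232 CPM in WT libraries (-0.57 ± 0.07, adjusted p = 4.20e-07). Glul, which makes glutamine, had 194, 241, 232 and 251 CPM in KO libraries, against 309.8, 319, 314 and 343 CPM in WT libraries (-0.48 ± 0.06, adjusted p = 2.23e-06). Each of these genes separated the genotypes. Fabp7, a fatty acid binding protein of radial glia, fell by 0.27 (adjusted p = 1.04e-06). Sox2, the transcription factor of neural stem cells, had 185 to 199 CPM in KO libraries and 174 to 186 CPM in WT libraries (adjusted p = 0.412), and Gfap had 777, 569.6, 814 and 522 CPM in KO libraries and 917, 578, 942 and 589 CPM in WT libraries (adjusted p = 0.555). In Gfap the odd libraries of both genotypes lay above the even ones.

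Secreted and surface proteins of astroglia included some of the smallest p-values. The protease inhibitor A2m had 2453, 2524, 2515 and 2569 CPM in KO libraries, against 1646, 1748, 1645 and 1777 CPM in WT libraries (0.56 ± 0.04, adjusted p = 1.53e-10, 7.79e-04 with summed libraries). Ncan, the chondroitin sulphate proteoglycan neurocan, had 2765, 2864, 2954 and 2949 CPM in KO libraries, against 4071, 4003, 4200 and 4020 CPM in WT libraries (-0.50 ± 0.04, adjusted p = 2.29e-10, 1.83e-04 with summed libraries). Igsf3, an immunoglobulin superfamily membrane protein, had 153, 162, 164 and 151 CPM in KO libraries, against 249.5, 242, 276 and 268 CPM in WT libraries (-0.71 ± 0.06, adjusted p = 1.74e-10, 1.83e-04 with summed libraries). These 3 genes are abundant and their libraries hardly vary within a genotype. Wif1, a secreted inhibitor of Wnt, had 43.3, 32.4, 40.5 and 31.7 CPM in KO libraries, against 62.4, 56.1, 73.6 and 67.7 CPM in WT libraries (-0.82 ± 0.10, adjusted p = 7.39e-07). Lcn2, the acute-phase protein lipocalin 2, had 12.2 to 16.4 CPM in KO libraries and 23.2 to 29.3 CPM in WT libraries (-0.92 ± 0.13, adjusted p = 5.14e-06). The matrix glycoprotein Tnc had 13.8, 19.7, 12.8 and 20.8 CPM in KO libraries, against 9.73, 9.22, 9.64 and 10.01 CPM in WT libraries (0.79 ± 0.15, adjusted p = 5.39e-04, 0.0835 with summed libraries), and the metalloprotease Adamts1 rose by 0.69 ± 0.08 (adjusted p = 2.46e-07). Of 38 matrix and secreted genes, 4 rose and 5 fell, beside 6.69% and 6.45% of all genes tested. The calcium-binding S100a1 and the membrane protein Tmem176a fell by 0.56 and 0.61 (adjusted p = 2.52e-08 and 8.74e-09), and the cell adhesion protein Ctnna2 and the surface protein Cd109 rose by 0.86 ± 0.15 and 0.54 ± 0.05 (adjusted p = 1.86e-04 and 6.92e-09). Cbs, the first enzyme of transsulphuration, and the nucleoside transporter Slc29a1 fell by 0.85 and 0.89 (adjusted p = 2.59e-05 and 4.52e-05), whereas the amino acid transporter Slc38a2 had 268 to 286 CPM in KO libraries and 173 to 190.5 CPM in WT libraries (0.63 ± 0.07, adjusted p = 3.09e-08).

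Of 36 interferon-stimulated genes 3 rose and 2 fell, close to the 6.69% and 6.45% of all genes tested, with a median of 0.01. Their summed level was 1918 to 2032 CPM in KO libraries and 2051 to 2203 CPM in WT libraries. Ifit1, an antiviral sensor of RNA ends, had 38.8, 29.04, 32.4 and 28.8 CPM in KO libraries, against 15.3, 16.6, 13.5 and 16.5 CPM in WT libraries (1.04 ± 0.16, adjusted p = 1.25e-05), and Ifit3 had 43.3 to 48.6 CPM in KO libraries and 26.5 to 33.8 CPM in WT libraries (0.63 ± 0.12, adjusted p = 2.62e-04). Ifitm3, which blocks viral entry, moved against them, at 262 to 309 CPM in KO libraries and 378 to 425 CPM in WT libraries (-0.51 ± 0.05, adjusted p = 1.40e-08). Of 19 immediate early genes 5 rose and 0 fell by edgeR and by DESeq2 (7 and 1 at an unadjusted p below 0.05 in edgeR), and 0 passed with summed libraries (6 rises unadjusted). The 5 include Fos (0.58 ± 0.12, adjusted p = 0.00161, 0.115 with summed libraries) and Jun (0.47 ± 0.12, adjusted p = 0.0101, 0.154 with summed libraries). The RNA that coats the inactive X chromosome, Xist, had 78.2, 82.9, 72.3 and 82.8 CPM in KO libraries, against 46.04, 43.2, 44.4 and 38 CPM in WT libraries (0.88 ± 0.11, adjusted p = 7.85e-07), and shares 12.6% of its exonic length with its antisense gene Tsix. The cultures came from mice of both sexes. The nuclear RNA Malat1 rose by 0.28 ± 0.04 (adjusted p = 4.52e-05) and Neat1 by 0.79 ± 0.15 (adjusted p = 5.50e-04, 0.058 with summed libraries). All 5 transcripts that collect ribosomal RNA reads fell, among them Gm42418, which lies almost wholly (99.5%) over another gene (-0.52 ± 0.07, adjusted p = 8.98e-07).

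Of 36 genes of the H3K4 methylation machinery, 5 rose and 0 fell by edgeR and by DESeq2 (9 and 1 at an unadjusted p below 0.05 in edgeR), beside 6.69% and 6.45% of all genes tested in edgeR, and 0 passed with summed libraries (5 rises unadjusted). Kdm5a, which removes trimethylation from lysine 4, had 221, 189, 197 and 196 CPM in KO libraries, against 165, 163, 151 and 162 CPM in WT libraries (0.32 ± 0.06, adjusted p = 2.45e-04, 0.0791 with summed libraries). Kdm1b, the relative of LSD1, rose by 0.79 ± 0.17 and Kmt2e, a member of the methyltransferase family, by 0.30 ± 0.07 (adjusted p = 0.00139 and 0.00537, 0.0775 and 0.119 with summed libraries). Kdm1a, the gene of LSD1, had 70.9, 52.5, 60.5 and 57.5 CPM in KO libraries and 55.1, 56.99, 64.2 and 57.6 CPM in WT libraries, which overlapped (0.03 ± 0.09, adjusted p = 0.853). Of the genes that the study follows as candidate targets, Bhlhe40, a transcription factor of the HIF and clock circuits, had 162, 205, 179 and 199.9 CPM in KO libraries and 184, 219, 191 and 220.3 CPM in WT libraries (-0.12 ± 0.07, adjusted p = 0.312). Bhlhe41 (0.04 ± 0.07, adjusted p = 0.778), Dazap2 (-0.05 ± 0.04, adjusted p = 0.384), the checkpoint kinase Atr (0.22 ± 0.09, adjusted p = 0.106) and Fbxl5, a ubiquitin ligase subunit of iron homeostasis (-0.00 ± 0.08, adjusted p = 0.992), did not pass either. Only Pgk1 of this group did, as described above (0.47 ± 0.05). The effect on Bhlhe40 was -0.38 on day 5 and -0.29 on day 9. The difference of day 6 from either did not pass (adjusted p = 0.103 and 0.359, edgeR). In the fit of 4 libraries per group, all 6 genes were lower in KO on day 5 and 5 on day 9. Over all genes, 1099 and 682 of 12549 were lower. The effect of day 6 was larger than on day 5 for 3 and than on day 9 for 3, beside 7.48% and 3.95% of all genes (1 and 1 with summed libraries). These genes were followed because of results of the same study, so their values are no independent evidence of a direction.

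Across all genes, the KO effect of day 6 differed from that of day 5 at 1580 genes (12.6%), 939 upwards and 641 downwards, and from that of day 9 at 980 genes (7.81%), 496 upwards and 484 downwards (edgeR quasi-likelihood, adjusted p below 0.05). With libraries summed these counts were 187 (1.33%) and 50 (0.356%). Outside the hypoxia and mitosis groups, the stress granule protein Tia1 differed by -0.02 on day 5, 0.52 on day 6 and -0.33 on day 9 (adjusted p of the difference = 1.46e-05 and 6.45e-09). The endosomal adaptor Appl2 differed by -0.31, 0.25 and -0.65 (adjusted p = 3.07e-06 and 7.61e-10), and the ubiquitin ligase subunit Wsb1 by -0.27, 0.41 and -0.31 (adjusted p = 8.96e-08 and 3.75e-08). In each of these genes the KO effect was above 0 on day 6 only, among days 5, 6 and 9. The effect on Slc38a2 was -0.44 on day 5 and 0.63 on day 6 (adjusted p of the difference = 2.68e-09). Car2, a carbonic anhydrase, was lower in KO on day 6 (-0.29 ± 0.06, adjusted p = 8.98e-04, 0.101 with summed libraries), against 0.45 on day 9 (adjusted p of the difference = 2.51e-07). Prelp differed by 0.40 on day 5, -1.69 on day 6 and -0.51 on day 9 (adjusted p of the difference = 1.01e-04 and 0.0168, the second 0.161 with summed libraries), with day 6 levels of 9.07 ± 0.345 CPM in KO cells and 29.3 ± 2.08 CPM in WT cells, above those of 3.03 ± 0.472 CPM in KO cells and 2.31 ± 1.38 CPM in WT cells on day 5.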

How the data were processed

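Neural stem cells of 4 KO and 4 WT cultures of day 6 were sequenced after SMART-seq2 amplification, which does not keep the strand. Per the labels, the authors trimmed reads with Trimmomatic 0.32 and aligned them to GRCm38 with STAR 2.5.2a, and the deposited values are raw counts of uniquely aligned reads per gene. The study calls the libraries independent cultures, whereas the labels only number them, so p-values measure the spread between these libraries, which may be technical. Column names matched the samples' titles, and 0 columns of per-sample values were left unused. Of 39017 genes, 37693 took a symbol and place from the reference by Ensembl ID.

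Counts of the 24 libraries of days 5, 6 and 9 were filtered (edgeR 4.0.16, filterByExpr with a minimum count of 10 and a minimum total of 15), scaled by TMM and tested with the quasi-likelihood F test in R 4.3.3, with 1 term per group and Benjamini-Hochberg adjustment over all genes at a threshold of 0.05. The biological coefficient of variation common to all genes was 0.0962. Standard errors were taken from the fold change and the F statistic. CPM used the TMM-scaled library sizes, and log2 CPM a prior count of 2. DESeq2 1.42.0 and limma 3.58.1 were alternatives, and the test was run on simulated data first. Overlap between genes is the share of exonic length that another gene also covers. Cell type markers and gene lists are described by counts and medians without a test of the list.

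Members and lists were chosen with earlier results of these data known. Named genes were those the study follows, the 20 largest changes and the 10 smallest p-values in each direction among genes that passed both with 4 libraries and with summed libraries, had an average log2 CPM of at least 4, a gene name and no overlap between genotypes, up to 8 members of each list with the smallest p-values among those that passed at an average log2 CPM of at least 3, and the 10 smallest p-values of each difference between days. This rule named 216 genes, of which the text describes part (some are not reported here), and list members that did not pass may be named with their values. Prelp, Hif1a, Bnip3l, Adm, Vegfa, Plod1, P4ha1, Aldoa, Aurka, Aurkb, Mki67, Pmaip1, Ntsr2, Ccnb2, Tpx2, Ccne1, Ckap2, Fam19a1, Gpr34 and Igfbpl1 were outside it and were chosen after their values were seen. Whether replicate numbers pair KO with WT libraries was checked by correlating deviations from the group mean over genes, which gave 0.06, 0.04, 0.09 and 0.11 for numbers 1 to 4. As not every value was above 0.1, the numbers were not treated as pairs.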

Additional observations from a re-analysis of the deposited data

Results flagged for a closer look

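Among 330 groups of 4 libraries that the text describes (the genes in each genotype, and shares of counts), 11 (3.33%) held a library whose gap to the nearest of the others took a larger part of the group's range than Dixon's critical value, where chance gives about 1 in 20. In KO these were library 2 for Top2a, at 17.6 CPM against 22.7 to 23.5 CPM in the others, library 3 for Cdkn1a at 171 CPM against 156 to 158 CPM, library 4 for Aurkb at 0.153 CPM against 0.88 to 0.961 CPM and library 4 for Mrpl42 at 323 CPM against 355 to 361 CPM. KO library 1, the shallowest, was outlying for Rpl37a at 137 CPM against 144 to 145 CPM, for Igfbpl1 at 1.503 CPM against 2.29 to 2.45 CPM, and for the share of counts in ribosomal protein genes at 1.35% against 1.43% to 1.44%. In WT they were library 1 for Egln1 at 78.1 CPM against 67.2 to 68.2 CPM, library 3 for Neat1 at 10.4 CPM against 13.6 to 13.9 CPM, library 3 for Gpr34 at 0.26 CPM against 0 in the others, and library 2 for Psma6 at 557 CPM against 526 to 529 CPM.

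The KO effect of day 6 differed from that of day 5 by a test of the difference itself (edgeR quasi-likelihood, adjusted over all genes). On the log2 scale, day 6 minus day 5, the difference was 1.04 ± 0.07 for Bnip3, 0.88 ± 0.07 for Pgk1, 0.93 ± 0.08 for Higd1a, 1.04 ± 0.09 for Egln1, 0.79 ± 0.08 for Fam162a, 1.08 ± 0.11 for Pdk1 and 1.07 ± 0.10 for Slc38a2 (SE). It was -0.59 ± 0.06 for Cox6c, -0.71 ± 0.07 for the mitochondrial ribosomal RNA mt-Rnr2 and -1.19 ± 0.09 for Gm42418, which collects ribosomal RNA reads. Against day 9 the difference, day 6 minus day 9, was 0.90 ± 0.07 for Appl2, 0.84 ± 0.08 for Tia1, 0.95 ± 0.09 for Vldlr, 0.72 ± 0.07 for Wsb1, 1.11 ± 0.10 for Pdk1 and 0.90 ± 0.09 for Egln1. It was -1.40 ± 0.15 for Nuf2, -1.02 ± 0.13 for Top2a, -1.23 ± 0.18 for Ccnb1, -1.91 ± 0.28 for Aspm and -0.75 ± 0.08 for Car2. The libraries of each day were a set of their own, and what a day's libraries share apart from the day cannot be told apart from it.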

How the results depend on the processing

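The 1649 genes that passed on day 6 became 217 with summed libraries, 710 with the odd libraries alone, 777 with the even libraries alone and 1 when a change beyond 1.5-fold was required, and 1268 to 1359 when 1 of the 8 libraries was left out. The counts of the differences from day 5 (1580) and from day 9 (980) became 187 and 50 with summed libraries, and 1326 to 1502 and 786 to 875 when 1 library was left out. Every other count stayed within 1.5 times, from 1196 with counts thinned to the shallowest library to 2307 with the replicate block, and 1800 by DESeq2, where 1703 adjusted p-values were NA. Without a filter, the share of higher genes was 42.5%, against 50.9%. Scaling by library size alone moved the median of all genes by 0.01 (log2), and no list median moved beyond its replicate SD under any of 3 other scalings.

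The replicate number as a block, in the 8 libraries of day 6, gave 2307 genes (1582 shared with the 1649), brought Slc2a3, Ldha, Slc1a3, Gfap and mt-Co1 past the threshold and lost Aurka, Nes, Chek1 and Brca1, and with the GC content and length offsets it gave 1922, against 1433 with the offsets alone. With the block and the offsets, 3 nuclear genes of oxidative phosphorylation rose and 27 fell (median -0.09), and 0 cytosolic ribosomal protein genes rose and 30 fell (median -0.13). Each KO library correlated best with the WT library of its own number, and over 6402 genes with a log2 CPM of at least 4, an addition made after the data were seen, the 4 correlations were 0.21, 0.17, 0.24 and 0.24, so the pairing is a hint from the data and not the design. The current form of the edgeR test, also added later, gave 1774 genes. The offsets alone lost Hif1a, Aurka, Aurkb, Ephx1, Ctsd and Eef2.

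Of 161 named genes, 61 no longer passed with summed libraries. Directions turned only for genes near 0. Kdm1a was -0.0665 in the even libraries and -0.039 to 0.0896 when 1 library was left out, negative without KO library 1. Bhlhe41 was -0.0121 after thinning and -0.0037 to 0.057 when 1 library was left out, negative without WT library 1. Fbxl5 was 0.0057 with library size alone, 0.0011 in the fit of the 8 libraries of day 6, 0.167 in the even libraries, 0.0244 after thinning, and -0.0685 to 0.0505 when 1 library was left out, positive without KO library 1, KO library 3 or WT library 1. The cause of these shifts was not tested. KO library 1, with 3327966 counts, limits what genes below 3 CPM can show.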

Other observations

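For the groups counted here, the shares over all genes tested were 6.69% higher and 6.45% lower. Of 30 genes of cholesterol synthesis and transport 4 rose and 3 fell in KO, with a median log2 fold change of -0.03. The sterol carrier Stard4 had 22.6, 26.8, 25.4 and 22.2 CPM in KO libraries, against 19.8, 15.1, 13.4 and 17.9 CPM in WT libraries (0.55 ± 0.12, adjusted p = 0.00195, edgeR), and the synthesis enzyme Hsd17b7 rose by 0.47 ± 0.11 (adjusted p = 0.00462). Npc2, which carries cholesterol out of lysosomes, had 489, 538, 515 and 552 CPM in KO libraries, against 597, 629, 599 and 652 CPM in WT libraries (-0.24 ± 0.05, adjusted p = 0.00112). Carrier and synthesis genes therefore stood on both sides of 0, and 0 of the 30 passed with summed libraries (edgeR, 4 rises and 4 falls at an unadjusted p below 0.05). Of 18 genes of fatty acid synthesis and binding 5 fell and 0 rose (edgeR, 6 and 2 at an unadjusted p below 0.05, and by DESeq2 5 and 1). They included the elongase Elovl1 (-0.39 ± 0.07, adjusted p = 1.55e-04, 0.0641 with summed libraries) and the desaturase Fads1 (-0.26 ± 0.06, adjusted p = 0.00151, 0.14 with summed libraries). Among lysosomal genes, Gm2a, which helps to degrade gangliosides, fell by 0.35 (adjusted p = 1.53e-04, 0.073 with summed libraries), and Atp6v1b2, a subunit of the proton pump, rose by 0.31 ± 0.06 (adjusted p = 9.53e-04, 0.0954 with summed libraries).

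Mitochondrial ribosomal protein genes resembled the cytosolic ones in sign, with 8 of 64 lower and 0 higher (edgeR, 12 and 0 at an unadjusted p below 0.05, and by DESeq2 9 and 0) and a median of -0.08. Mrpl42 had 361, 355, 360.2 and 323 CPM in KO libraries, against 450.3, 418, 431 and 399 CPM in WT libraries, without overlap (-0.28 ± 0.06, adjusted p = 0.00163, 0.132 with summed libraries). Of 29 translation factors 3 rose and 4 fell, among them the elongation factor Eef2 (-0.29 ± 0.07, adjusted p = 0.00426, 0.189 with summed libraries), and of 31 proteasome genes 1 rose and 2 fell, among them Psma6 (-0.21 ± 0.05, adjusted p = 0.00484, 0.161 with summed libraries). Of 34 genes of the amino acid response to ATF4 4 rose and 5 fell, and the alanine transaminase Gpt2 rose by 0.30 ± 0.06 (adjusted p = 3.17e-04, 0.0582 with summed libraries). The co-chaperone Dnajc3 rose by 0.25 ± 0.06 (adjusted p = 0.00176, 0.14 with summed libraries) with 2 others of 22 genes of folding in the endoplasmic reticulum. Of 21 BMP targets and pathway genes 2 rose, Smad1 by 0.29 ± 0.07 (adjusted p = 0.0056, 0.152 with summed libraries), in cultures that all received BMP4.

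Some further genes differed clearly between the genotypes. Immp2l had 11.4, 13.4, 12.8 and 11.6 CPM in KO libraries, against 25.2, 23.8, 22.01 and 25.03 CPM in WT libraries (-0.95 ± 0.12, adjusted p = 3.81e-07, 0.00437 with summed libraries). The calponin Cnn3, which binds actin, had 832, 846, 836 and 804 CPM in KO libraries, against 618, 584, 626 and 570.3 CPM in WT libraries (0.47 ± 0.04, adjusted p = 5.04e-09), and shares 17.7% of its exonic length with another gene. Scrg1 had 459, 500.4, 491 and 516 CPM in KO libraries, against 651, 673, 643 and 680.5 CPM in WT libraries (-0.43 ± 0.05, adjusted p = 4.63e-08). All 3 separated the genotypes and passed with summed libraries. Kdm6a, an X-linked demethylase of histone H3 lysine 27, rose by 0.39 ± 0.09 (adjusted p = 0.00336, 0.157 with summed libraries), beside Xist at 0.88 ± 0.11. The Y-linked genes Ddx3y, Uty and Kdm5d had 161 to 194, 61.3 to 90.2 and 28.3 to 32.5 CPM in KO libraries, against 169 to 186, 73.4 to 79.9 and 29.5 to 34.6 CPM in WT libraries, and the genotypes overlapped in each.

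A further 3 transcripts were scarce and higher in every KO library than in any WT library. Fam19a1, which encodes a chemokine-like secreted protein, had 1.202, 0.704, 0.699 and 1.53 CPM in KO libraries, against 0 in all 4 WT libraries. Gpr34, a lysophospholipid receptor typical of microglia, had 2.104, 3.17, 1.22 and 1.22 CPM in KO libraries, against 0, 0, 0.26 and 0 CPM in WT libraries. Igfbpl1, a binding protein of insulin-like growth factors, had 1.503, 2.29, 2.45 and 2.45 CPM in KO libraries, against 0.13, 0.369, 0.26 and 0.278 CPM in WT libraries. The adjusted p was 2.80e-04, 6.47e-04 and 4.57e-04 in that order, and 0.0164, 0.0332 and 0.0458 with summed libraries. These levels stand for a few counts per library, and no fold is given.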
